A study of Mus musculus with 24 samples.

Results

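The 12 plasma vesicle libraries taken 8 days after surgery, out of 24 in the study, fell into a deeper and a shallower class by the number in their sample names. The deeper class held numbers 4 to 6 and the shallower class numbers 1 to 3, each with 3 mice after bile duct ligation (BDL) and 3 after sham surgery. Every mouse was a male of the inbred strain C57BL/6J, each library came from 1 mouse, and ages are not given in the labels. Ligation stops the outflow of bile and causes cholestasis. The other 12 libraries were made in the same way from ligated and sham mice 15 days after surgery and were used as libraries that the division did not touch. The tissue label reads liver and the site label extracellular vesicles; the protocol describes vesicles precipitated from EDTA plasma, so the values were read as RNA of plasma vesicle preparations. The division was chosen by measured values, the depth and the platelet transcript share of these same libraries. Every value that sets the 2 classes of day 8 against each other is therefore a description, given without a p-value.

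Platelets are cell fragments without a nucleus that megakaryocytes shed into blood. They carry messenger RNA inherited from the megakaryocyte, seal damaged vessels, and release vesicles of their own when activated. Plasma keeps some platelets unless it is spun hard, and reagents that precipitate vesicles also collect other particles and debris. The labels state spins of 1000 g for 10 minutes and 2000 rpm for 15 minutes, and give no platelet count, date or sequencing pool for any library. Number class, depth and any day or batch of preparation can therefore not be told apart. In such bulk RNA, more material from a cell type and more RNA in each particle cannot be told apart either.

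Platelet genes share regulators in the megakaryocyte, among them GATA and ETS family factors. Whether these factors relate to the differences between the classes was not tested. The 250 bases before the start of 4 platelet genes are shown because these genes name the set most plainly. They are the chemokines of the granules, Pf4 and Ppbp, and the adhesion receptors Gp5 and Gp6. The sequences come from RefSeq (GRCm38.p6), at chr5:90772185-90772434 (plus strand), chr5:90768268-90768517 (plus), chr16:30310782-30311031 (minus) and chr7:4397745-4397994 (minus). Capitals mark matches on either strand to AGATAA or TGATAA, called GATA here, or to GGAAGT, called ETS here. Each sequence reads 5′ to 3′ towards the gene.
Pf4: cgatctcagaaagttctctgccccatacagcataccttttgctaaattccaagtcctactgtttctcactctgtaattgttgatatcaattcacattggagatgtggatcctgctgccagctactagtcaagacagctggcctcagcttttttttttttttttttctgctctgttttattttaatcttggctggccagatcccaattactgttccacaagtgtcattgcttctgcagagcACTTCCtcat
Ppbp: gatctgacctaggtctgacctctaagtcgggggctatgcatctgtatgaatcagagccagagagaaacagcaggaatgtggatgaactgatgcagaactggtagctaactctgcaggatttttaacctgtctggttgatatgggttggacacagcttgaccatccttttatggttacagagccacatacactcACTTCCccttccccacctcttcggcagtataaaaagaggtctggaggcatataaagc
Gp5: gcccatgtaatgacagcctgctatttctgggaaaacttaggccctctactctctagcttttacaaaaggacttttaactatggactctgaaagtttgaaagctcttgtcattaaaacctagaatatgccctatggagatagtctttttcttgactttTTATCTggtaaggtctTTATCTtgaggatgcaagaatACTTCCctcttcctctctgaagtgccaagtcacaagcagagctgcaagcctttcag
Gp6: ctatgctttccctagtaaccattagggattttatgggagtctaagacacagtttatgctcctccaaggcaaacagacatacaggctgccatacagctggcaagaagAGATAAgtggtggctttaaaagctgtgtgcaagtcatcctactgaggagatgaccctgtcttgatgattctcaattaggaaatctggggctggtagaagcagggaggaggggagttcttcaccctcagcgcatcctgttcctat
Promoters matched 23 of the 28 genes in the core list of platelet genes. A GATA match stood in 39.1% of these 23 promoters and an ETS match in 43.5%, against 16.6% and 19.7% of all 32851 promoters of the table. Both kinds stood in 13%, against 2.96%. Among promoters of the genes tested at day 8, 9.21% held a GATA match, 23.5% an ETS match and 2.03% both. Each promoter shown above held a match, while those of Alox12, Gp1bb, Selp, Slc35d3, Tbxas1, Treml1 and Tubb1 held none. In the hepatocyte list, the GATA share was also above that of all promoters, and the ETS share was below it. The erythroid list, whose genes are known GATA targets, held a GATA match in 47.6% of 21 promoters and an ETS match in 4.76%. These matches are letters in a window and describe the genes, not binding in these mice.

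Depth and platelet share chose the division, so that both separate the classes at day 8 was fixed in advance. Total counts ran from 535737 to 937963 in the deeper class, with a median of 718638, and from 101733 to 349386 in the shallower class, with a median of 237748. The core platelet list held 0.741%, 1.48% and 1.51% of the counts in the deeper ligated libraries and 0.731%, 0.871% and 1.29% in the deeper sham libraries. In the shallower class it held 0.162%, 0.304% and 0.423% after ligation and 0.220%, 0.230% and 0.474% after sham surgery. Ligated and sham mice overlapped in both classes, and the classes did not overlap. Within a class, share did not always rise with depth. Ligated numbers 6 and 3 were the deepest ligated libraries of their classes and held the lowest ligated shares there (0.741% and 0.162%). In the deeper sham libraries the share rose with depth. The libraries nearest the divide were sham number 3 (349386 counts) and sham number 5 (535737) for depth, and sham number 2 (0.474%, 95% exact interval 0.448 to 0.50) and sham number 5 (0.731%, 0.708 to 0.754) for platelet share. These intervals cover counting error only.

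**Figure D1:**
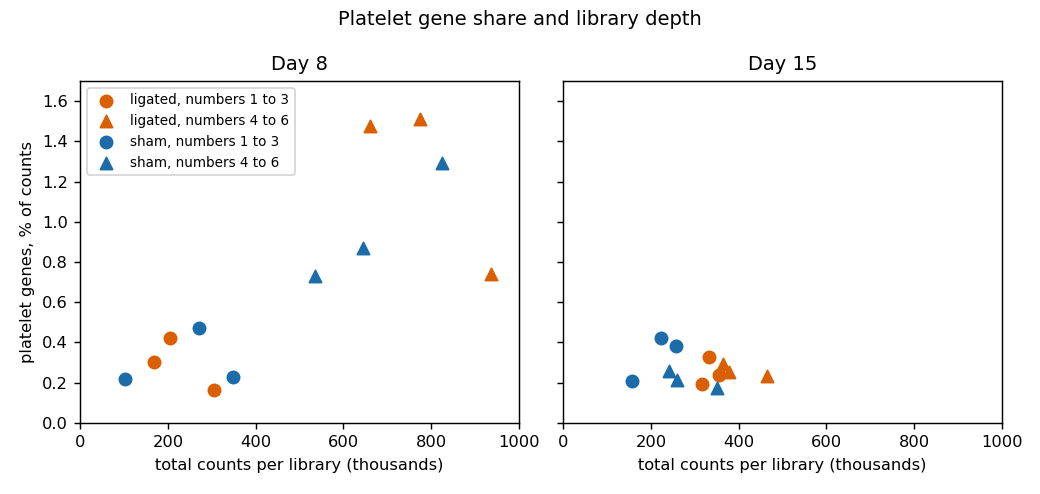
Share of counts in 28 platelet genes (percent) against total counts per library (in units of 1000 counts), one point per library, for day 8 and day 15. At day 8 the 6 libraries numbered 4 to 6 lie above 0.7% and to the right of the 6 numbered 1 to 3; at day 15 all 12 lie between 0.172% and 0.421%.

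More depth did not mean a broader set of genes at equal counts. The deeper libraries listed 12020 ± 400.3 genes with a count and the shallower ones 10165 ± 1271 (SD, n = 6 each). After every library was thinned to 101733 counts, the values were 7953 ± 211 and 8147 ± 254. The gene model of Lars2, a mitochondrial aminoacyl-tRNA synthetase, took 43.5% to 48.3% of the counts in the deeper class and 31.6% to 51.6% in the shallower class; the libraries had no ribosomal RNA depletion, and whether these counts are Lars2 messenger RNA was not tested. The first principal component held 23.9% of the variance and placed all deeper libraries (17.15 to 27.02) above all shallower ones (-39.89 to -8.451). The second held 19.1% and placed every ligated library above every sham library.

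Across all genes, 5109 passed the filter on low counts, and the fit with surgery as a covariate (edgeR) placed 616 of them past an adjusted p of 0.05, which is 12.1%. Of these, 374 were higher in the deeper class (7.32% of all tested) and 242 lower (4.74%). The classes did not overlap for 208 higher genes (4.07%) and 66 lower genes (1.29%). "Past the threshold" below means this mark, used to describe size against spread. With total counts alone as library size, 454 were higher and 122 lower, and the median of all genes moved from -0.02 to 0.12 on the log2 scale. The counts in each direction therefore depend on the scaling.

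Of the 10 largest higher differences without overlap and with a mean of at least 20 CPM, 6 were genes of the platelet lists. Of 91 genes in 5 such lists, 81 passed the filter, and 65 of these were higher past the threshold and 0 lower. The filter can be passed through the deeper class alone, so the 10 others were not compared. Of the 25 tested core genes, 24 were higher past the threshold, and the list had a median log2 difference of 1.97, against -0.02 over all genes tested. Platelet share chose the division, so these counts describe the libraries and support nothing.

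**Figure D2:**
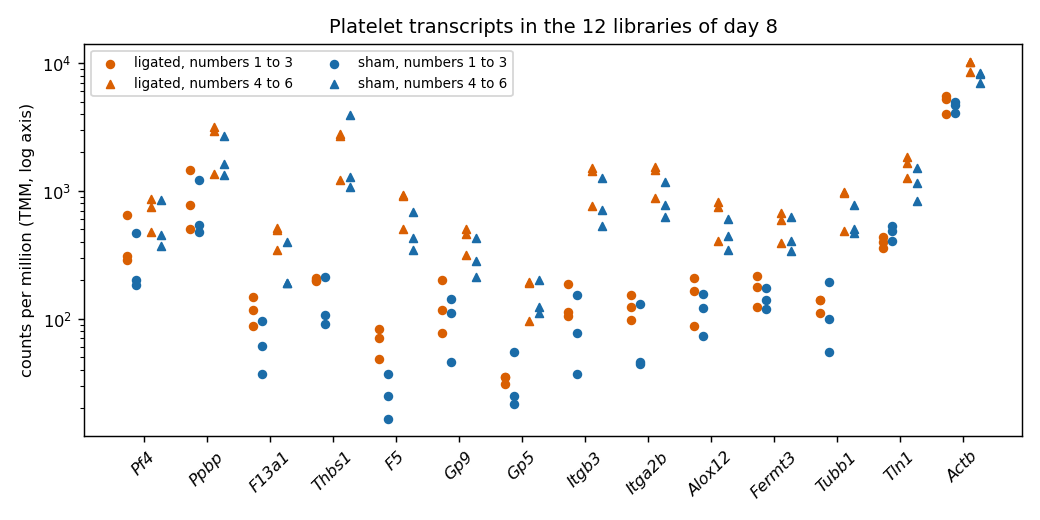
TMM-normalised CPM (log axis) of 14 platelet and cytoskeletal transcripts in the 12 libraries of day 8, one point per library, with colour for surgery, triangles for numbers 4 to 6 and circles for numbers 1 to 3. For F5, Thbs1, Itga2b, Itgb3 and Tubb1 every triangle lies above every circle; for Pf4 and Ppbp the lowest triangles overlap the highest circles.

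Granule cargo, the proteins platelets release when activated, was higher in the deeper class for 9 of 10 tested members (12 in the table), with a median log2 difference of 1.52. F5 encodes coagulation factor V (ENSMUSG00000026579, GRCm38 chromosome 1, 164151838 to 164220277, plus strand). Its level was 16.5, 42.6 and 82.6 CPM (counts scaled to a common library size; lowest, median, highest) in the shallower class and 341.9, 592.7 and 926.3 in the deeper class. The log2 difference was 3.87 (SE 0.26), the highest of all named genes, and the classes lay far apart. Thbs1, the adhesive glycoprotein thrombospondin (chromosome 2, 118111876 to 118127133, plus strand), had 91.5, 198 and 213 CPM against 1068, 2000 and 3935. Its log2 difference was 3.68 (SE 0.32), and sham number 6 had the highest level of all. F13a1, which encodes the fibrin cross-linking factor, had 36.6, 91.9 and 147 CPM against 189, 371 and 515 (log2 1.93, SE 0.23).

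The chemokines stood lower in this order. Ppbp, pro-platelet basic protein, had 476, 660.2 and 1450 CPM in the shallower class and 1331, 2166 and 3178 in the deeper class (log2 1.39, SE 0.27), with a narrow overlap. Pf4, platelet factor, had 183, 301 and 652 CPM against 372, 615 and 860.0 (log2 0.84, SE 0.26). Its classes overlapped, and in 7 of 12 refits without 1 library it was no longer past the threshold (log2 0.63 to 1.06). Clu, which encodes the extracellular chaperone clusterin, and Srgn, the granule proteoglycan serglycin, differed by 1.89 (SE 0.26) and 1.64 (SE 0.25). Vwf, the carrier of factor VIII that endothelium also makes, differed by 1.32 (SE 0.20). Sparc, a matrix glycoprotein of granules and of fibroblasts, was the member that did not follow, at 117 to 220 CPM against 53.5 to 148 (log2 -0.65, SE 0.22, not past the threshold).

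Surface receptors were higher for 19 of 21 tested members (25 in the table), with a median of 2.00. The fibrinogen receptor is a pair of integrin subunits. Itga2b had 44.1, 111 and 153 CPM in the shallower class and 622, 1035 and 1548 in the deeper class (log2 3.43, SE 0.25). Itgb3 had 36.6, 110 and 187 CPM against 529, 1013 and 1499 (log2 3.15, SE 0.27). Both subunits thus stood about 9-fold apart by medians (9.35 and 9.24). Itga6, a subunit of the laminin receptor, and Itga2, a subunit of the collagen receptor, differed by 3.15 (SE 0.26) and 2.78 (SE 0.36), and neither overlapped.

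The receptor for von Willebrand factor is built from Gp1ba, Gp1bb, Gp5 and Gp9. All 4 were past the threshold, at 1.97 (SE 0.29), 1.64 (SE 0.29), 2.29 (SE 0.28) and 1.61 (SE 0.24), and only Gp1bb overlapped between the classes among them. Gp5 (chromosome 16, 30307685 to 30310779, minus strand) had 21.3, 32.8 and 54.9 CPM against 96.3, 157 and 199. The collagen receptor Gp6 had 9.15, 26.8 and 53.3 CPM against 97.4, 143 and 221 (log2 2.24, SE 0.31). The nucleotide receptors P2rx1, P2ry1 and P2ry12, which respond to ATP or ADP, differed by 2.98 (SE 0.45), 1.53 (SE 0.41) and 1.76 (SE 0.25), none overlapping. Selp, the P-selectin of granule membranes and endothelium (log2 1.15, SE 0.43), and F11r, a junction protein (log2 0.06, SE 0.34), were not past the threshold.

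Signalling genes and enzymes of eicosanoid synthesis were higher for 14 of 18 tested members, with a median of 1.17. Alox12, the lipoxygenase of platelets, had 73.2, 139 and 208 CPM against 347, 524 and 819 (log2 2.02, SE 0.23). Thromboxane is made by the enzymes of Ptgs1 and Tbxas1, which differed by 1.28 (SE 0.26) and 2.24 (SE 0.44) without overlap. Fermt3, which activates integrins, differed by 1.66 (SE 0.19), Nrgn, a calmodulin-binding protein, by 1.38 (SE 0.22), and Rasa3, a brake on Rap signalling, by 1.01 (SE 0.14). Ano6, the phospholipid scramblase (log2 -0.11), and Slfn14 (log2 -0.83) were among the 4 members not past the threshold.

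Cytoskeletal genes were higher for 21 of 24 tested members, with a median of 1.00, and this list overlaps what all cells express. Tubb1, the tubulin of the platelet marginal band (chromosome 2, 174450695 to 174457882, plus strand), had 54.9, 125 and 195 CPM against 464, 637 and 979 (log2 2.41, SE 0.24). Flna (filamin), Tln1 (talin) and Myh9 (non-muscle myosin) differed by 1.80 (SE 0.18), 1.65 (SE 0.17) and 1.63 (SE 0.14), and none overlapped. Actb, the common actin, had 4034, 4854 and 5531 CPM against 6967, 8487 and 10240 (log2 0.87, SE 0.13). Tmsb4x, which binds actin monomers, differed by 0.89 (SE 0.18). Arpc1b (0.16), Tuba4a (0.09) and Tpm1 (0.02) were close to 0 on the log2 scale.

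The nuclear regulators of the lineage differed least among these lists. Of 8 megakaryocyte transcription factors tested (10 in the table), 2 were past the threshold, Mef2c at 0.92 (SE 0.23) and Fli1 at 0.56 (SE 0.18), and the median was 0.54. Fli1 was past the threshold in 2 of 12 refits without 1 library. Nfe2 had 46.2, 58.4 and 125 CPM against 65.2, 102 and 138 (log2 0.55, SE 0.21). Runx1 (0.20), Mafg (-0.02) and Zfpm1 (-0.36) also overlapped between the classes. Gata1 and Gfi1b did not pass the filter on low counts.

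The other 4 of the 10 largest higher differences were outside the platelet lists. Hpse, heparanase, which cleaves heparan sulfate (chromosome 5, 100679484 to 100719716, minus strand), had 0, 7.69 and 20.7 CPM against 77.6, 143 and 197 (log2 3.79, SE 0.40). Atp2a3, a calcium pump of the internal stores, had 36.6, 62.8 and 90.2 CPM against 349, 515 and 755 (log2 3.04, SE 0.21). Slc6a4, the serotonin transporter, and Slc24a3, an exchanger of sodium for calcium and potassium, differed by 2.79 (SE 0.41) and 2.81 (SE 0.49). Each shallower library held 0 to 4 counts of Hpse, 0 to 7 of Slc6a4 and 0 to 2 of Slc24a3, so these 3 values rest on few counts.

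Some vesicle proteins were higher in the deeper class. Of 20 tested members, 5 were higher past the threshold and 1 lower, and the median was 0.10. The list held 0.334% ± 0.0503 of the counts in the deeper class and 0.232% ± 0.0553 in the shallower class (SD, n = 6 each), and the libraries overlapped. The higher ones were the tetraspanins Cd9 (1.33, SE 0.29), Cd81 (1.08, SE 0.20) and Cd151 (2.11, SE 0.34), the adaptor Sdcbp (1.07, SE 0.19) and the secretory GTPase Rab27b (1.68, SE 0.30). Cd9 had 210, 268 and 746 CPM against 788, 1002 and 1390. Cd9 and Rab27b are also in the platelet lists. Anxa2 was lower (-0.55), and Pdcd6ip (0.28), Hgs (0.09), Flot2 (-0.80) and Rab27a (-0.73) were not past the threshold.

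**Figure D3:**
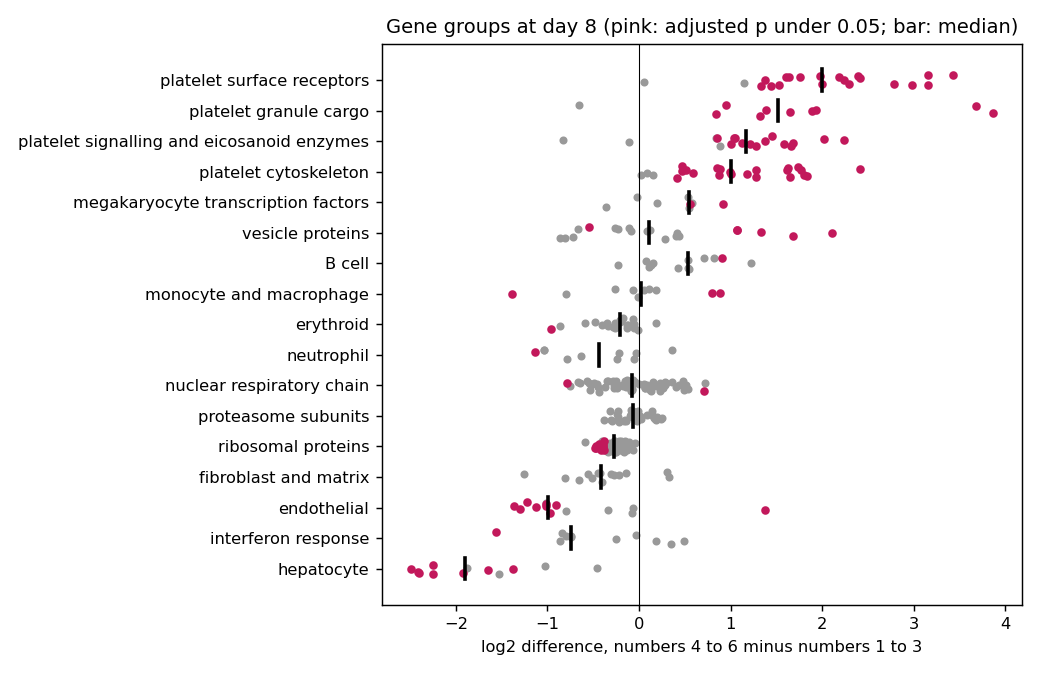
Log2 difference of each tested gene between numbers 4 to 6 and numbers 1 to 3 at day 8, by gene list, with surgery as a covariate. Points are genes, bars are list medians and pink points have an adjusted p under 0.05. The 5 platelet and megakaryocyte lists have medians from 0.54 to 2.00, and the hepatocyte list has the lowest, -1.90.

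Markers of other blood cells had smaller median differences than the platelet core list. The erythroid list held 6.80% to 12.6% of the counts in the deeper class and 5.91% to 16.7% in the shallower class. None of its 22 tested members was higher past the threshold and 1 was lower, Ank1, which encodes ankyrin (-0.96, SE 0.27), a count that ran from 0 to 5 without 1 library. The beta globin Hbb-bs differed by -0.28 (SE 0.17), and Alas2, the first enzyme of erythroid heme synthesis, by -0.21 (SE 0.19). Of 10 neutrophil genes tested (20 in the table), S100a9 was lower (-1.14, SE 0.33) and none higher. Its difference was -0.44 in ligated and -1.97 in sham mice alone. S100a9 was no longer past the threshold without sham number 1, 3, 5 or 6. The count of lower neutrophil genes ran from 0 to 3 over the refits without 1 library. B cell genes had a median of 0.54 with 12 of 13 positive, of which Pax5 alone was past the threshold (0.91, SE 0.25); without 1 library 0 to 4 were. The B cell list held 0.114% ± 0.0414 of the counts in the deeper class and 0.0794% ± 0.0331 in the shallower class (SD, n = 6 each). Of 10 monocyte and macrophage genes, Fcer1g (0.89, SE 0.23) and Lyz2 (0.79, SE 0.21) were higher and Cx3cr1 was lower (-1.39, SE 0.39). Fcer1g encodes the signalling partner of Gp6 in platelets as well. T cell and NK cell genes had 4 tested members of 20, none past the threshold.

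Among the 242 lower genes, none was in a platelet list and 38 were in any list used here. The 10 named by size had no overlap between the classes. Raph1, lamellipodin, which guides actin at the cell edge (chromosome 1, 60482292 to 60567104, minus strand), had 22.1, 43.6 and 77.5 CPM in the shallower class and 4.30, 9.69 and 20.9 in the deeper class (log2 -1.94, SE 0.39). Il6st, the shared receptor chain of the interleukin 6 family (chromosome 13, 112464070 to 112510086, plus strand), had 128, 224 and 252 CPM against 49.2, 74.1 and 102 (log2 -1.43, SE 0.22). Ece1, the endothelin-converting enzyme, had 101, 121 and 181 CPM against 32.1, 49.4 and 68.4 (log2 -1.41, SE 0.22). The other 7 were Hmcn1, Tmem2, Golim4, Dapk1, Zfp704, Wbp5 and Car8, from -1.86 to -1.40. Each shallower library held 2 to 28 counts of these 7 genes and 3 to 15 of Raph1, so these values rest on few counts. After thinning, Car8 differed by -0.31 and the others of the 7 by -2.38 to -1.28. Wbp5 differed by -2.31 in ligated and -0.44 in sham mice alone. Without 1 library, Wbp5 was no longer past the threshold in 4 of 12 refits, Car8 in 1 and the others of the 7 in 0.

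Endothelial genes were lower for 8 of 14 tested members (18 in the table), with a median of -0.99. Erg, an endothelial transcription factor, had 94.0, 140 and 201 CPM against 29.2, 58.1 and 96.9 (log2 -1.22, SE 0.23). Emcn, Cdh5, Ptprb, Eng and Plvap, all surface proteins of endothelium, differed by -1.36, -1.30, -1.12, -1.01 and -1.01. Esam, which platelets also carry, was higher (1.37, SE 0.33), and Pecam1, shared with platelets, differed by -0.07. The list held 0.0454% to 0.0939% of the counts in the deeper class and 0.0677% to 0.163% in the shallower class, which overlap. The count of lower genes ran from 2, without sham number 2, to 10 over the refits without 1 library. It was 3 in the ligated mice alone, 0 in the sham mice alone and 1 after thinning.

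Hepatocyte genes were lower for 8 of 12 tested members (34 in the table), and this rested on ligated number 3. Hpx, the heme carrier hemopexin, had 132, 76.3 and 821 CPM in shallower ligated libraries 1, 2 and 3, and 91.4, 32.1 and 62.6 in deeper ligated libraries 4, 5 and 6. Ligated number 3 stood alone, and the 6 sham libraries held 1 Hpx count in all. Without ligated number 3, none of the 12 genes was past the threshold and the median went from -1.90 to -0.39. The list held 0.537% of the counts in that library, 0.0584% to 0.112% in the other ligated libraries and 0.00765% to 0.0216% in the sham libraries, where 8 to 29 of its 34 genes had no count.

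Genes of general cell functions had smaller median differences than the platelet core list. All 81 tested ribosomal protein genes were lower, 10 past the threshold, with a median of -0.27. Of all genes tested, 4.74% were lower past the threshold. The classes did not overlap for 19 of the 81, against 1.29% of all genes tested that were lower without overlap. Rps12 and Rps13 each differed by -0.47. With total counts alone as library size the median was -0.13, 7 were positive and none was past the threshold. Without 1 library 3 to 15 were, the fewest without ligated number 5. The 67 genes of the nuclear respiratory chain had a median of -0.08, with Cox5a higher (0.71, SE 0.22) and Atp5j lower (-0.79, SE 0.20). Cox5a was no longer past the threshold in 8 of 12 refits without 1 library, and Atp5j in 0. The 35 proteasome genes had a median of -0.07 and none past the threshold. Of 54 replication-dependent histone genes, Hist1h2bc was higher (1.07, SE 0.24), and Hist1h2bl and Hist1h2ad were lower (-1.72 and -2.28). Hist1h2ad had no count in the 3 deeper sham libraries and differed by -0.75 in ligated mice alone, and the count of lower histone genes ran from 0, without sham number 4, to 12 without 1 library. Interferon response genes had 1 lower member of 11, Ifit3 (-1.57, SE 0.31), which reports cells' response to interferon.

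As a description, the differences were also computed within each surgery group. For F5 the log2 difference was 3.51 in ligated and 4.35 in sham mice, for Thbs1 3.49 and 3.84, for Itga2b 3.39 and 3.44, and for Gp5 2.25 and 2.30. Pf4 differed by 0.75 and 0.90. After thinning to 101733 counts, F5, Thbs1 and Itga2b differed by 3.59, 3.57 and 3.36, close to the values at full depth. Other named genes moved more, in either direction. Car8 went from -1.40 to -0.31, the translation factor Eif4g1 from 0.75 to 0.20 and Zfp704 from -1.43 to -2.38. Raph1 differed by -2.50 in ligated and -1.27 in sham mice.

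The division did not use surgery, so the effect of ligation could be tested within each class (edgeR quasi-likelihood test, 3 against 3 libraries in a fit of all 12, Benjamini-Hochberg adjustment). In the shallower class 78 genes changed, 1.53% of those tested, of which 71 rose (1.39%) and 7 fell (0.137%). In the deeper class 25 changed (0.489%), of which 21 rose (0.411%) and 4 fell (0.0783%). None of the 81 platelet genes tested was past the threshold in either class. Their median log2 difference was 0.157 in the shallower class and 0.391 in the deeper class. Over all genes tested it was -0.011 and -0.009. With the number as a block, 46 genes changed in the deeper class, 40 up and 6 down. The counts moved with single sham libraries: 7 genes in the shallower class without sham number 3 and 28 without number 2, and 3 genes in the deeper class without sham number 5, 10 without number 4 and 77 without number 6.

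Both classes shared 9 changed genes, 11.5% of the first list and 36.0% of the second, all in the same direction. They were Apob, Hpx, Trf and Serpina1b, which encode plasma proteins of the liver, Pigr, the receptor that carries immunoglobulin A, Tgfbi, a matrix protein induced by transforming growth factor beta, Msrb1 and Gpx1, antioxidant enzymes, and Chd9, a chromatin remodeller. The filter on low counts can be passed through the ligated libraries alone. Hpx had 1 sham count in the shallower class and 0 in the deeper class. Genes with such sham counts, Serpina1b among them, could hardly fall, so their shared direction was largely fixed in advance. Serpina1b, an antiprotease, had 34 counts after ligation and 1 after sham surgery in the shallower class (ratio 50.4, 95% exact interval 8.46 to 2050). In the deeper class it had 49 counts and 0, which is at least 14.9-fold higher against a floor of 3 counts over the group, with an exact lower limit of 11.7. Intervals of such ratios come from counts summed over 3 mice and cover counting error only, not the spread between mice. Tgfbi had 194, 117 and 108 CPM in shallower ligated libraries 1, 2 and 3 and 54.9, 60.4 and 44.1 in the sham ones, a rise of 1.39 (SE 0.32, adjusted p = 0.0296). In the deeper class it had 147, 116 and 173 against 37.3, 52.9 and 38.1, a rise of 1.78 (SE 0.25, adjusted p = 0.00261). For Tgfbi no ligated library overlapped a sham library in either class.

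Red cell genes rose in the shallower class. Of 22 tested, 12 rose there and 0 in the deeper class. Hbb-bs had 62884, 74793 and 45463 CPM after ligation and 26661, 22721 and 19332 after sham surgery in shallower libraries 1, 2 and 3, a rise of 1.41 (SE 0.20, adjusted p = 0.00218). In the deeper class it had 33705, 32825 and 48717 CPM against 22657, 22848 and 28370, a difference of 0.64 (SE 0.19, adjusted p = 0.162). Ligated libraries were above sham libraries in both classes. Alas2 rose by 1.66 (SE 0.25) in the shallower class and differed by 0.85 (SE 0.24, adjusted p = 0.117) in the deeper class. The count of 12 was 2 without sham number 3 and 4 without sham number 2, and the count of 0 was 14 without sham number 6 and 6 with the number as a block. Without the filter on low counts, 20 of 28 rose in the shallower class and 14 of 28 in the deeper class.

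Neutrophil genes rose in the deeper class, 6 of 10 tested there against 1 in the shallower class. Lcn2, the iron-binding lipocalin, had 27.8, 77.9 and 53.3 CPM after ligation and 7.17, 0 and 1.23 after sham surgery in deeper libraries 4, 5 and 6, a rise of 4.07 (SE 0.57, adjusted p = 0.00261). In the shallower class it had 69.4, 64.6 and 103 against 18.3, 24.9 and 13.8, a difference of 2.08 (SE 0.57, adjusted p = 0.0842). S100a8, a calcium-binding alarmin, rose by 2.68 (SE 0.43) in the deeper class and differed by 1.49 (SE 0.46, adjusted p = 0.137) in the shallower one. The other members that rose in the deeper class were Ltf, Ngp, S100a9 and Retnlg. The count of 6 was 1 without sham number 5 and 3 without ligated number 5. P2rx4, an ATP-gated channel, had 68 counts after ligation and 2 after sham surgery in the shallower class (ratio 50.4, 95% exact interval 13.4 to 425), and 44 and 6 in the deeper class (6.71, 2.85 to 19.3). The 68 counts were 8, 16 and 44 in ligated libraries 1, 2 and 3, so the ratio leans on ligated number 3. The call in the shallower class was lost in 0 of 12 refits without 1 library. With so few sham counts, P2rx4 too could hardly fall. It rose in the shallower class (adjusted p = 0.00218) and not past the threshold in the deeper class (adjusted p = 0.0761).

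**Figure D4:**
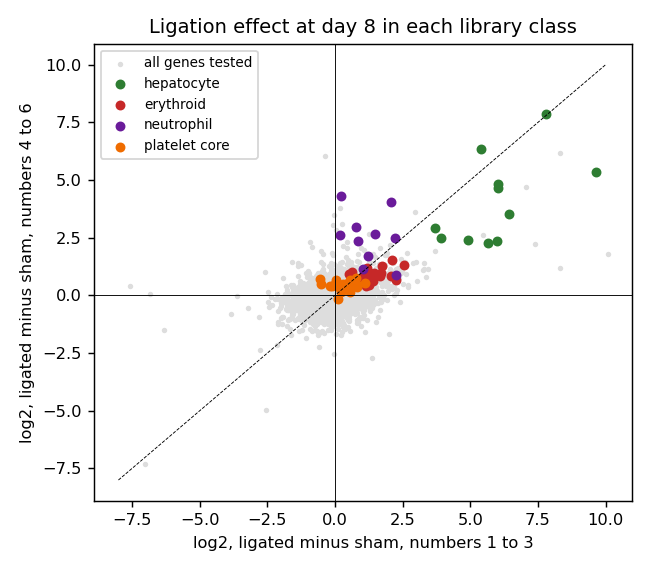
Log2 difference between ligated and sham mice at day 8 in numbers 1 to 3 (horizontal) and numbers 4 to 6 (vertical), one point per tested gene, with 4 lists coloured and the line of equal values dashed. Platelet core genes have medians of 0.28 (horizontal) and 0.47 (vertical), none past the threshold. Erythroid genes lie to the right of the origin, mostly below the line. Hepatocyte values rest on sham counts at or near 0, so their distance is not a measured fold.

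No gene was called for a difference in its ligation effect between the classes. With 3 libraries per group this does not show that the effects are equal. The test of that difference (edgeR interaction term) called 0 of 5109 genes, with 249 at an unadjusted p under 0.05 (4.87%), and DESeq2 called 0 as well. For Hbb-bs the difference of the effects was -0.77 (SE 0.27, adjusted p = 0.94), for Lcn2 1.99 (SE 0.89, adjusted p = 0.94) and for P2rx4 -2.85 (SE 1.31, adjusted p = 0.94). The unequal counts of erythroid and neutrophil genes above are thus not shown to differ between the classes. Without the filter on low counts, 23 genes were called.

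The same numbers did not mark platelet share at day 15. The core list held 0.192% to 0.421% of the counts in numbers 1 to 3 and 0.172% to 0.294% in numbers 4 to 6. The difference of the latter from the former was -0.0577 percentage points (two-sided exact permutation test within surgery groups, 400 arrangements, p = 0.24). Totals at day 15 were 157133 to 354230 and 242110 to 465744. Platelet share and total count, both centred on their group means on the log2 scale, had a Pearson r of -0.164 (permutation p = 0.711, adjusted 0.907 over 28 lists) and a Spearman rho of -0.133 (p = 0.711, adjusted 0.872) over 12 libraries. Without the 2 libraries farthest from the median total, r was -0.573 (permutation p = 0.168). Within groups r was -0.0361 (exact permutation p = 0.942) after ligation and -0.199 (p = 0.718) after sham surgery, n = 6 each.

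Gene by gene, numbers 4 to 6 against 1 to 3 at day 15 gave 0 called genes of 4225 (edgeR; 419 or 9.92% at an unadjusted p under 0.05, 2 called by DESeq2). F5 had a log2 difference of -0.10 (SE 0.38), Thbs1 -0.34 (SE 0.24), Itga2b -0.20 (SE 0.29) and Pf4 -0.40 (SE 0.21), all with overlap. Of the 321 genes that were higher in the deeper class at day 8 and tested at day 15, 43.9% had the same sign there, against 48.9% of all genes. Of 216 lower genes, 80.6% had the same sign, against 51.1% of all genes. How far this share rests on single libraries was not tested. Sham number 1 of day 15 had 381 CPM of Il6st and 373 of Ece1. The other day 15 libraries had at most 210 and 158. For Raph1 that library had 51.6 CPM, below the 80.6 of ligated number 1. Raph1 was -0.83 (SE 0.40, adjusted p = 0.512) and Il6st -0.34 (SE 0.25, adjusted p = 0.663) at day 15.

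The platelet share of each day 15 library served as a second, graded measure. Its association with each gene, with surgery as a covariate, gave 0 called genes of 4225 (edgeR; 439 or 10.4% at an unadjusted p under 0.05, 14 called by DESeq2). The slopes are log2 changes per doubling of the platelet share. Core list members enter that share, so their slopes are no test: Gp9 had 1.90 (SE 0.36), Ppbp 1.21 (SE 0.26), Pf4 0.95 (SE 0.22) and Itga2b 0.17 (SE 0.42). Of genes outside the core list, Cd9 had a slope of 1.07 (SE 0.23, adjusted p = 0.17), Thbs1 0.91 (SE 0.27, adjusted p = 0.229) and F5 0.25 (SE 0.57, adjusted p = 0.932), none past the threshold. Outside the platelet lists, 59.1% of 264 genes higher at day 8 had a positive slope, against 48.6% of all such genes. Of the 216 lower genes 37.5% had a negative slope, against 51.4%.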

How the data were processed

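RNA from vesicles precipitated from 250 µl of plasma was made into stranded libraries with 15 cycles of PCR, without depletion of ribosomal RNA, and sequenced in pools of 12, per the labels' protocols. The authors deposited expected counts per gene for 21960 mouse Ensembl genes in 24 libraries, and all values were whole numbers. STAR, RSEM and hg38 are named in the submitters' processing notes, without versions. The identifiers are mouse, and the labels and notes name no mouse build; coordinates are those of GENCODE M21 (GRCm38), which held 21860 of the identifiers.

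The counts of the 12 day 8 libraries were fitted with edgeR 4.0.16 in R 4.3.3 (quasi-likelihood test, TMM, filterByExpr with a minimum count of 10 and a minimum total of 15), with number class and surgery as terms. P-values were adjusted by Benjamini-Hochberg over all tested genes, with a threshold of 0.05. Levels are TMM-normalised CPM. Ligation within each class, its difference between the classes, the same number split at day 15 and the association with platelet share at day 15 were tested likewise. DESeq2 1.42.0 and limma 3.58.1 served alternatives. Shares at day 15 were compared by exact permutation within surgery groups, and correlations with 100000 permutations (scipy 1.17.1). Each fit was tested on simulated data. Share intervals are exact binomial at 95% and cover counting error only.

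The members, the 28 gene lists and the tests were chosen with earlier results of these data known. Genes were named by a rule: a fixed set of markers, the 10 largest differences in each direction with a mean of at least 20 CPM and no overlap, the top 5 for ligation in each class, and up to 4 per list. Other members of the lists, such as Gp6, Vwf, Srgn and Sparc, were named after their values were seen. Nothing in the labels says that the libraries of a class shared a preparation. The deviations of same-numbered ligated and sham libraries from their group means had correlations of 0.114 to 0.286 at day 8, above 0.1 for all 6 numbers. Around the means of each surgery and class they were -0.144 to 0.026. Some members of the lists are not reported here by name.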

Additional observations from a re-analysis of the deposited data

Results flagged for a closer look

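In 4 of 58 groups of 6 libraries, 1 library stood apart from the other 5 by Dixon's criterion at the 95% level; chance gives about 1 in 20. At day 8, ligated number 3 was apart in 3 measures. Its Lars2 share was 31.6% of the counts, against 43.5% to 48.3% in the other ligated libraries. Its hepatocyte list held 0.537%, against 0.0584% to 0.112%, and its chemosensory receptor genes 0.123%, against 0.00107% to 0.0143%. Sham number 1, the shallowest library, held 0.101% in the adipocyte and skin list, against 0.0271% to 0.0526% in the other sham libraries. Without ligated number 3 no gene of the hepatocyte list was past the threshold between the classes.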

How the results depend on the processing

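The class comparison at day 8 placed 616 genes past the threshold, and 429 to 603 without 1 library. It placed 260 after thinning, 241 in ligated mice alone, 174 in sham mice alone, and 387 without ligated number 3 and sham number 1 together, an alternative added after seeing the data. DESeq2 placed 336 higher and 321 lower. For ligation, 78 genes changed in the shallower class (7 to 96 without 1 library, 184 without the filter on low counts) and 25 in the deeper class (3 to 77, and 177). With the number as a replicate block these were 69 and 46; the block gave 691 genes between the classes, 325 higher, and 0 for the other 3 tests. Without the filter the difference of the ligation effects gave 23 genes, the day 15 split 40 and the share association 117, each 0 with it. DESeq2 gave 2 and 14 for the last 2. Leaving out 1 library gave 0 for the difference of the effects, 0 to 2 for the day 15 split and 0 to 64 for the share association, where 64 arose without sham number 1. Of 78 named genes, none that was past the threshold changed sign. In sham mice alone 3 others did: Alb was 0.44 (-1.88 in all mice), Alas2 0.17 (-0.21) and Hbb-bs 0.06 (-0.28). Alas2, Lars2 and Rplp0 also changed sign without the filter, and Lars2 with total counts alone as library size. Of the 78, 50 kept their side of the threshold after thinning, 50 in ligated mice alone and 37 in sham mice alone. The depth of the shallower class limits genes of low level.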
